A study of Caenorhabditis elegans with 12 samples.

Results

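The 10 genes described here encode the engulfment and corpse recognition machinery of C. elegans, and were taken by name from the 46726 genes of the deposited count table: nrf-5, ttr-52, ced-7, ced-1, ced-6, psr-1, ced-2, ced-5, ced-12 and ced-10. In C. elegans a dying cell or a shed neuron fragment exposes phosphatidylserine on its surface, and neighbouring cells read this lipid through 2 partly parallel routes. In the first, the secreted lipid-binding proteins NRF-5 and TTR-52 and the ABC transporter CED-7 act with the transmembrane receptor CED-1, which signals through the adaptor CED-6. In the other, receptors such as PSR-1 act through the adaptor CED-2 and the exchange-factor pair CED-5 and CED-12, which switch on the Rac GTPase CED-10 to rearrange actin around the target. Amphid sheath (AMsh) glia, which wrap the endings of the amphid sensory neurons, are known to engulf fragments of the endings of the AFD neuron by a process that uses PSR-1 and CED-10.

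The question behind the series is how these glia react once the cilia at their dendritic partners are gone, and RNA was sequenced from sorted glia and from all other sorted cells of the same larvae. The 12 libraries form 4 groups of 3: che-2(e1033) AMsh, wild type AMsh, che-2(e1033) non-AMsh and wild type non-AMsh. All animals carried the F16F9.3pro::dsRed reporter, and those of strain OS11549 carried the e1033 mutation in the intraflagellar transport gene che-2, whereas strain OS4079 is wild type at che-2. Each genotype was grown as 3 liquid cultures, named here by the replicate codes E30, E35 and E36, for 36 to 42 h at 20 °C and harvested as L3 and L4 larvae. Each culture was a pool of many larvae and gave both fractions: dsRed-positive nucleated cells (AMsh, 0.1 to 0.4% of events) and dsRed-negative ones (non-AMsh). The mutation is carried by every cell, so the neurons of the non-AMsh fraction are mutant as well.

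Library totals lay between 15420762 and 26019499 counts. A pair of libraries stood apart, in which fewer genes were detected (15711 in che-2 AMsh E35 and 14101 in wild type AMsh E30) than in the other 10 (17555 to 19298). The summed level of 7 AMsh markers was 475 to 3385 CPM (read counts scaled to one common library size) in che-2 AMsh, 912 to 3670 in wild type AMsh, 93.5 to 127 in che-2 non-AMsh and 128 to 200.5 in wild type non-AMsh libraries. With both genotypes averaged, 6 of the 7 markers were called higher in AMsh by edgeR's quasi-likelihood test, and the median log2 fold change of all 7 was 3.66. pros-1, the AMsh marker that was not called, was listed at 0 in wild type AMsh E30. Marker lists of 9 other tissues were at about the same level in both fractions, with median log2 fold changes of -0.41 to 0.18. The AMsh libraries therefore held RNA with the markers of hypodermis (summed 5176 to 17176 CPM in che-2 AMsh, 9049 to 12261 in wild type AMsh), muscle and intestine as well, and the part of these cells in the levels given below was not tested. In such pools, fewer cells of a type and less RNA per cell cannot be told apart. The mutated gene che-2 was read at 0.669, 12.5 and 4.69 CPM in che-2 AMsh libraries E30, E35 and E36, against 0, 2.18 and 0.666 CPM in wild type AMsh libraries. Its transcript is thus present in the mutant, and its level does not check the genotype labels.

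All 10 genes were detected, and all passed the filter on low counts. None of them was called in any of the 6 comparisons at an adjusted p under 0.05 or at an unadjusted p under 0.05 (edgeR's quasi-likelihood test, Benjamini-Hochberg over 16690 genes). The share of all genes called was 0.437% for AMsh over non-AMsh in wild type, 0.593% in che-2 and 0.875% with the genotypes averaged. It was 0.461% for che-2 over wild type in AMsh, 0.144% in non-AMsh and 0% for the difference between these changes. Shares of all genes with an unadjusted p under 0.05 were 3.81%, 2.98%, 4.48%, 12.8%, 10.3% and 1.68% in the same order. The 95% intervals below are wide, and the common biological coefficient of variation over all genes was 0.732. On simulated counts in which every gene had about this spread, the same test missed nearly all genes given a several-fold change. The absence of calls alone therefore says little. The 10 genes differed in spread, with an SD of the log2 level within groups from 0.32 (ced-2) to 1.33 (ced-6), so the simulation does not give the power for each of them. The 95% interval of each gene gives the changes that the fitted model allows. Its width rests on a spread estimated with the help of all genes tested, and not on the values of that gene alone. A gene that missed the threshold is not shown to be equal between groups.

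**Figure D1:**
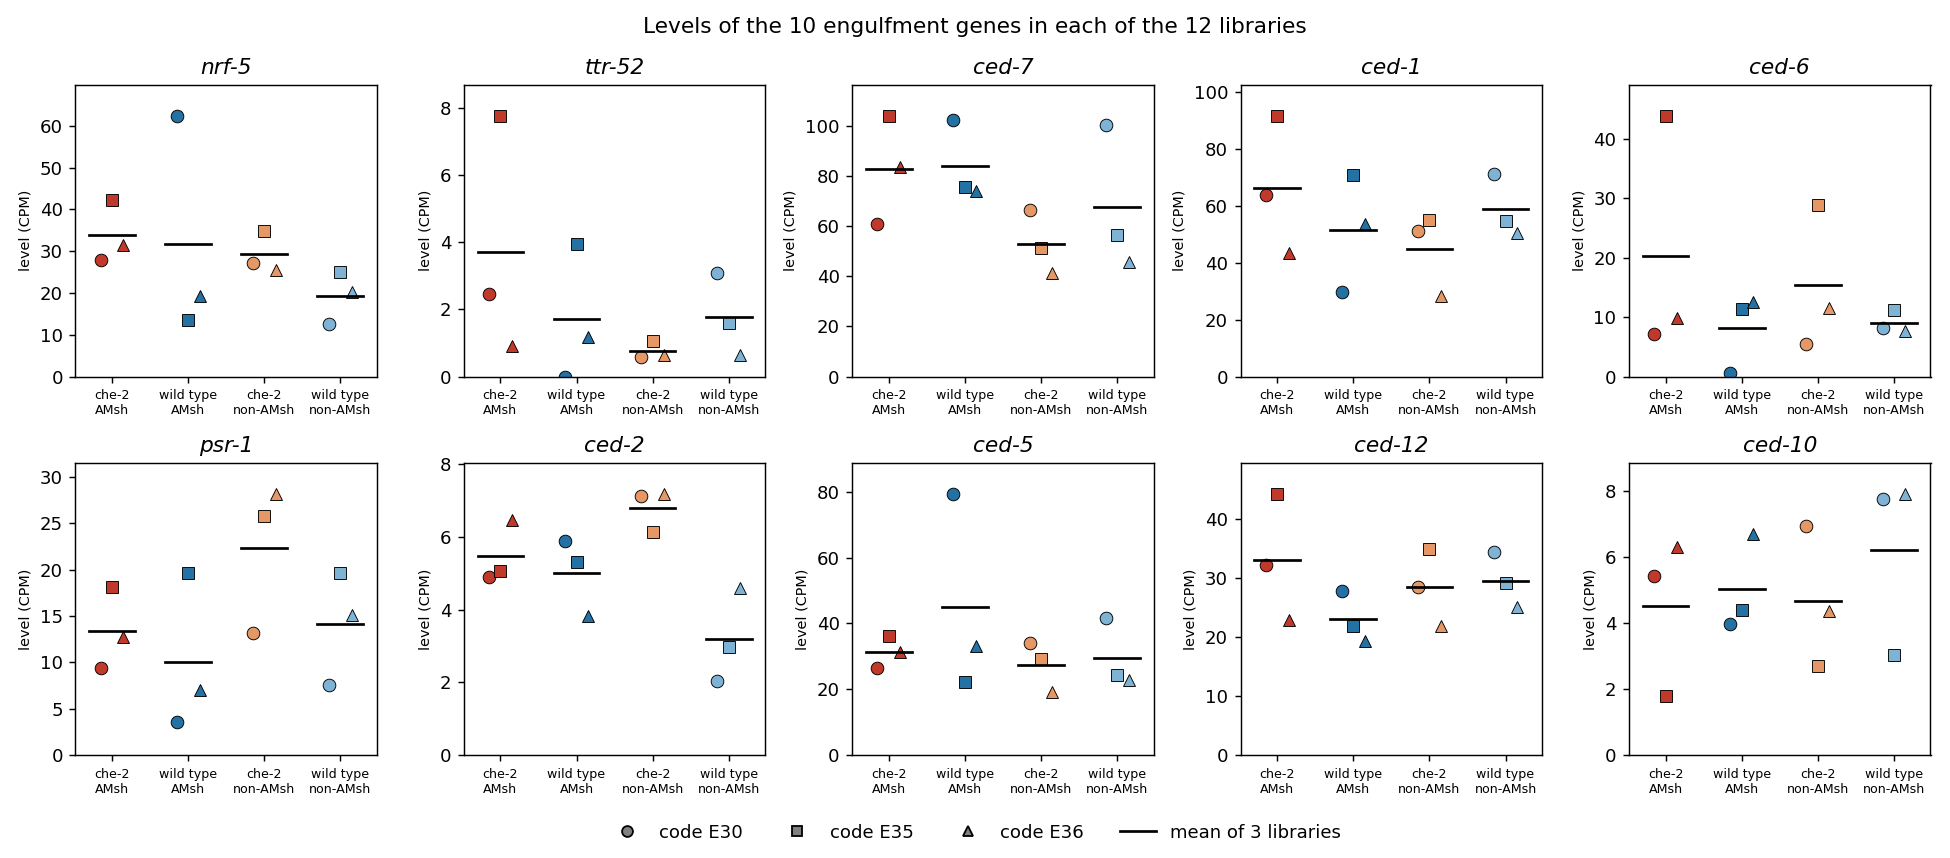
Level of each gene in CPM in each of the 12 libraries, grouped as che-2 AMsh, wild type AMsh, che-2 non-AMsh and wild type non-AMsh (circle, square and triangle: codes E30, E35 and E36; bar: mean of 3 libraries). The groups overlap for most genes, and ced-2 and nrf-5 do not overlap between che-2 and wild type in non-AMsh, as for 22.2% of all genes tested.

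The secreted proteins of the CED-1 route were read at very different depth. nrf-5 (WBGene00003812, chromosome V, 13828208 to 13831040 on WBcel235), whose product binds lipid and works with TTR-52 at the corpse surface, had 7370 counts over the 12 libraries. Its level was 28.0, 42.4 and 31.6 CPM in che-2 AMsh libraries E30, E35 and E36, against 62.3, 13.6 and 19.3 CPM in wild type AMsh libraries. In non-AMsh it was 27.2, 34.9 and 25.6 CPM in che-2, against 12.7, 25.0 and 20.2 CPM in wild type. The wild type AMsh values straddle the che-2 ones, with E30 the highest of all 12 libraries. In non-AMsh, by contrast, every che-2 library was above every wild type one, as for 12.2% of all genes tested. The log2 fold change of che-2 over wild type was 0.60 in non-AMsh (SE 0.51, 95% interval -0.52 to 1.71, adjusted p = 0.783). In AMsh it was 0.10 (SE 0.51), and 1.05 without wild type AMsh E30 (adjusted p = 0.349, and 0.257 to 1.00 over the alternatives).

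ttr-52 (WBGene00008719, chromosome III, 13404737 to 13405645), whose product bridges phosphatidylserine to CED-1, had only 504 counts over the 12 libraries. It stood at 2.45, 7.76 and 0.903 CPM in che-2 AMsh and at 0, 3.96 and 1.17 CPM in wild type AMsh. Wild type AMsh E30 had no count, which allows at most 0.134 CPM (3 counts, counting error only). Non-AMsh libraries had 0.580, 1.06 and 0.656 CPM in che-2, against 3.08, 1.60 and 0.651 CPM in wild type. Neither genotype was separate from the other in either fraction. The intervals were the widest of the 10 genes: log2 1.11 for che-2 over wild type in AMsh (95% interval -1.802 to 4.03), and leaving out libraries moved it from -0.61 (without the 2 libraries with the fewest genes) to 2.65 (without wild type AMsh E35), with -0.03 without che-2 AMsh E35.

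ced-7 (WBGene00000421, chromosome III, 9570216 to 9579873), the ABC transporter, had the highest level in CPM of the 10 genes, 71.7 on average over 12 libraries. Its level was 60.8, 103.7 and 83.4 CPM in che-2 AMsh libraries and 102.3, 75.7 and 74.1 CPM in wild type AMsh libraries. Non-AMsh libraries had 66.5, 51.0 and 41.2 CPM in che-2, against 100.1, 56.4 and 45.6 CPM in wild type. The genotypes overlapped in both fractions. In 5 of 6 cultures the AMsh library was above the non-AMsh library, and the averaged log2 fold change was 0.48 (SE 0.26, 95% interval -0.09 to 1.05, unadjusted p = 0.0896, adjusted p = 1.00 by edgeR).

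ced-1 (WBGene00000415, chromosome I, 11851343 to 11868105), the engulfment receptor with extracellular EGF-like repeats, had 63.8, 91.5 and 43.3 CPM in che-2 AMsh libraries, against 29.6, 70.8 and 53.7 CPM in wild type AMsh libraries. In non-AMsh it had 51.1, 55.0 and 28.2 CPM in che-2, against 71.0, 54.7 and 50.5 CPM in wild type. The ranges overlapped in both fractions. The log2 fold change of che-2 over wild type was 0.37 in AMsh (SE 0.41, 95% interval -0.53 to 1.26), and -0.22 without the 2 libraries with the fewest genes. It was -0.39 in non-AMsh (SE 0.41, 95% interval -1.29 to 0.50).

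ced-6 (WBGene00000420, chromosome III, 5595771 to 5598435), the adaptor that carries the signal of CED-1, varied most within groups among the 10. Its level was 7.18, 43.8 and 9.82 CPM in che-2 AMsh and 0.669, 11.4 and 12.5 CPM in wild type AMsh. In non-AMsh it was 5.57, 28.9 and 11.5 CPM in che-2, against 8.11, 11.26 and 7.74 CPM in wild type. Both che-2 libraries of culture E35 were far above the rest, and wild type AMsh E30 was far below. The log2 fold change in AMsh was 1.31 (SE 0.95, 95% interval -0.76 to 3.37, adjusted p = 0.606), and -0.49 without the 2 libraries with the fewest genes (0.05 without che-2 AMsh E35 alone). In the same che-2 culture the hypodermal collagen gene col-19 reached 3417 CPM in the glial library and 2604 CPM in the other, against 19.4 to 697 CPM in the other che-2 libraries and 22.4 to 288 CPM in wild type libraries. These are the columns headed E35, whose deposited names carry the code E36. Whether the cells or the stage marked by col-19 bear on ced-6 was not tested.

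Of the receptor and signalling genes of the other route, psr-1 (WBGene00004205, chromosome IV, 4653293 to 4655850), which encodes the phosphatidylserine receptor, had 9.41, 18.1 and 12.8 CPM in che-2 AMsh and 3.57, 19.7 and 6.99 CPM in wild type AMsh. Non-AMsh libraries had 13.2, 25.8 and 28.1 CPM in che-2, against 7.53, 19.7 and 15.1 CPM in wild type. The genotypes overlapped in both fractions. In all 6 cultures the AMsh library was below the non-AMsh library of the same larvae, although in wild type E35 the pair was nearly equal, and psr-1 was alone among the 10 in lying on one side in every culture (3.61% of all genes tested lay below in all 6, and 3.07% above). Its averaged log2 fold change was -0.61 (SE 0.43, 95% interval -1.55 to 0.32, unadjusted p = 0.179, adjusted p = 1.00 by edgeR), and -0.72 where the culture was a block in the model (adjusted p = 0.684, the lowest of the alternatives). Without wild type AMsh E35 it was -1.08.

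ced-2 (WBGene00000416, chromosome IV, 1597316 to 1601621), a Crk-family adaptor, had the smallest spread within groups of the 10 (SD of the log2 level 0.32 after group means were removed, against 0.33 for ced-12). It had 4.90, 5.06 and 6.46 CPM in che-2 AMsh, against 5.88, 5.32 and 3.83 CPM in wild type AMsh. In non-AMsh it had 7.13, 6.13 and 7.17 CPM in che-2, against 2.03, 2.97 and 4.60 CPM in wild type. The non-AMsh groups did not overlap, and every che-2 library was above every wild type one, as for 12.2% of all genes tested. This gave the smallest p of any of the 10 genes in any comparison, a log2 fold change of 1.09 (SE 0.51, 95% interval -0.01 to 2.19, unadjusted p = 0.0521, adjusted p = 0.494 by edgeR, with adjusted p from 0.092 to 1.00 over the alternatives). Its AMsh change was 0.13 (95% interval -0.96 to 1.22), and the difference between the AMsh and non-AMsh changes, -0.96 (SE 0.71, unadjusted p = 0.200 by edgeR), did not pass either.

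ced-5 (WBGene00000419, chromosome IV, 10484110 to 10492952), the DOCK-family exchange factor, had 26.4, 36.1 and 31.3 CPM in che-2 AMsh libraries and 79.2, 22.3 and 33.12 CPM in wild type AMsh libraries. In non-AMsh libraries it had 34.1, 29.1 and 19.03 CPM in che-2, against 41.5, 24.4 and 22.9 CPM in wild type. The groups overlapped, and wild type AMsh E30 again held the highest value. The log2 fold change in AMsh was -0.52 (SE 0.46, 95% interval -1.52 to 0.48), and 0.17 without that library.

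ced-12 (WBGene00000426, chromosome I, 10222880 to 10227486), the ELMO-family partner of CED-5, had 32.2, 44.2 and 22.8 CPM in che-2 AMsh and 27.8, 21.8 and 19.4 CPM in wild type AMsh. Its non-AMsh levels were 28.6, 34.9 and 21.8 CPM in che-2, against 34.4, 29.2 and 25.1 CPM in wild type. The genotypes overlapped in both fractions. The log2 fold change of che-2 over wild type in AMsh was 0.53 (SE 0.34, 95% interval -0.21 to 1.26, adjusted p = 0.556), and 0.42 without the 2 libraries with the fewest genes.

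ced-10 (WBGene00000424, chromosome IV, 3506404 to 3509529), the Rac GTPase on which this route ends, was low. It had 5.44, 1.7998 and 6.32 CPM in che-2 AMsh and 3.97, 4.41 and 6.70 CPM in wild type AMsh. Non-AMsh libraries had 6.96, 2.71 and 4.36 CPM in che-2, against 7.75, 3.01 and 7.90 CPM in wild type. The groups overlapped in both fractions, and the 95% interval of the log2 fold change in AMsh was -1.55 to 1.25. rac-2, a near-identical copy of ced-10, is listed at 0 in every library, and the labels do not state how reads shared by such copies were counted, so the level of ced-10 is uncertain.

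The counts of 4 of the genes may have gained or lost reads where their exons overlap a gene on the opposite strand, since no source used here gives the strand setting. The overlap covers 23.3% of the exon bases of ced-6 (480 bases shared with wdr-37), and 4.25% of those of psr-1 (shared with the collagen gene col-111), 1.31% of those of ced-7 and 2.28% of those of nrf-5. wdr-37 was at 7.71 CPM in che-2 AMsh E35, where ced-6 was highest, and at 22.6 CPM in wild type AMsh E30, where ced-6 was lowest. In the other libraries wdr-37 was at 9.24 to 28.7 CPM, and its bearing on the ced-6 count was not tested. col-111 had 55604 counts over the 12 libraries, against 3839 for psr-1, and its bearing on the psr-1 count, as a gain or a loss, was not tested. Its mean level was 210 CPM in che-2 AMsh and 203 CPM in wild type AMsh, and 217 CPM in che-2 non-AMsh and 197 CPM in wild type non-AMsh.

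Levels of different genes were compared per kilobase of exon. The order of the 12-library means was nrf-5 (14.8 ± 7.04 CPM per kb, SD, n = 12), ced-1 (13.1 ± 4.19), ced-7 (12.4 ± 3.81), psr-1 (10.8 ± 5.47), ced-12 (10.2 ± 2.53), ced-6 (6.40 ± 5.68), ced-5 (5.86 ± 2.79), ced-2 (4.68 ± 1.45), ttr-52 (4.60 ± 4.98) and ced-10 (3.22 ± 1.28), each in CPM per kb. The members of the CED-1 route are therefore found at both ends, with nrf-5, ced-1 and ced-7 leading and ttr-52 near the bottom. Of the 9 steps in this order, the one between ced-12 and ced-6 was held in 10 of 12 libraries, and each of the others in 6 or 7 of 12, which is within the spread of the libraries. Among all genes tested, these means lay between the 32.1 percentile (ced-10) and the 70.5 percentile (nrf-5) of the level per kilobase.

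**Figure D2:**
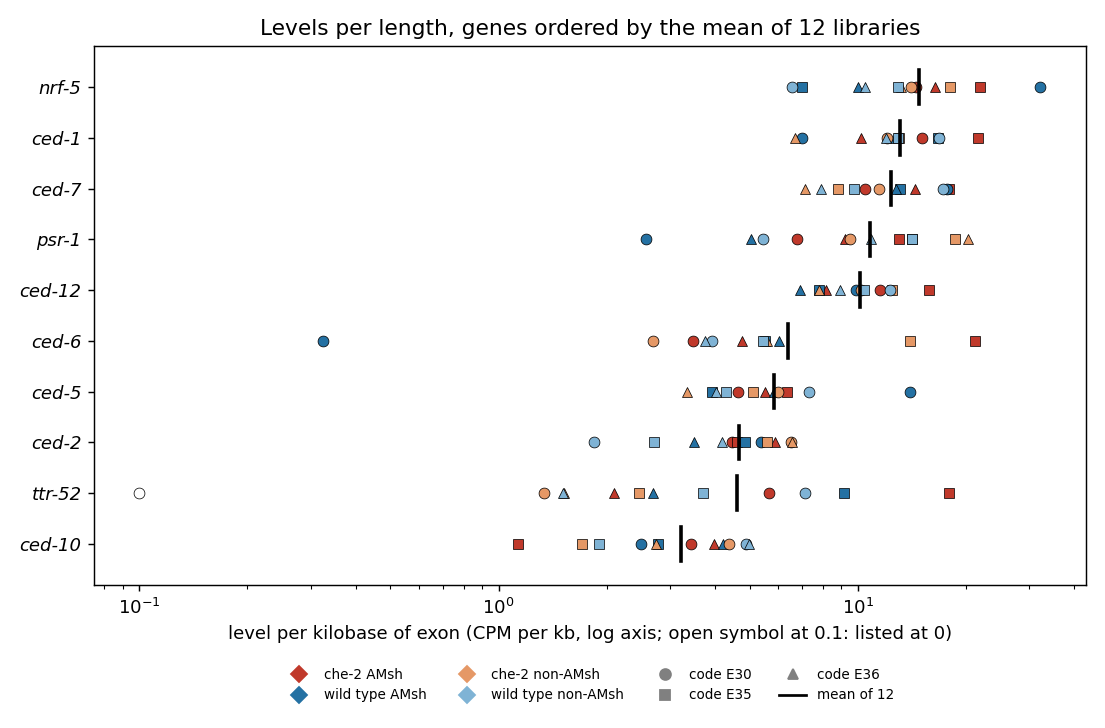
Level of each gene per kilobase of exon (CPM per kb, log axis) in the 12 libraries, ordered by mean (black bar), with group shown by colour and code by symbol. nrf-5 to ced-12 lie near 10 CPM per kb, while ced-6 runs over the widest range above 0 and ttr-52 has a library listed at 0.

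Averaged over the genotypes, the fold change between the fractions was smaller for each of the 10 engulfment genes than for any of the 7 AMsh markers. Their log2 fold changes of AMsh over non-AMsh ran from -0.61 (psr-1) to 1.10 (ttr-52), 7 of 10 were above 0, and the median was 0.18, against -0.05 over all genes tested. The size of the change regardless of sign had a median of 0.29 in the 10 genes and 0.30 over all genes. In wild type the 10 had a median of -0.10, against -0.10 over all genes, and in che-2 of 0.22, against 0.00 over all genes. The median size in che-2 was 0.36 in the 10 genes and 0.34 over all genes. The che-2 value of ttr-52 was 2.26, against 2.97 for the lowest AMsh marker in che-2, and it was 1.125 without che-2 AMsh E35. The averaged value of ttr-52 was 0.34 without wild type AMsh E35 and 0.53 without che-2 AMsh E35. The 95% interval of the averaged change lay below the markers' median of 3.66 for each of the 10, with upper bounds from 0.32 for psr-1 to 3.18 for ttr-52. No gene was without overlap between AMsh and non-AMsh libraries in wild type (8.65% of all genes were) or in che-2 (8.08%). Without the 2 libraries with the fewest genes the averaged log2 fold changes ran from -0.55 (psr-1) to 0.83 (ttr-52), with ced-7 at 0.30, nrf-5 at -0.10 and ced-5 at -0.01.

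**Figure D3:**
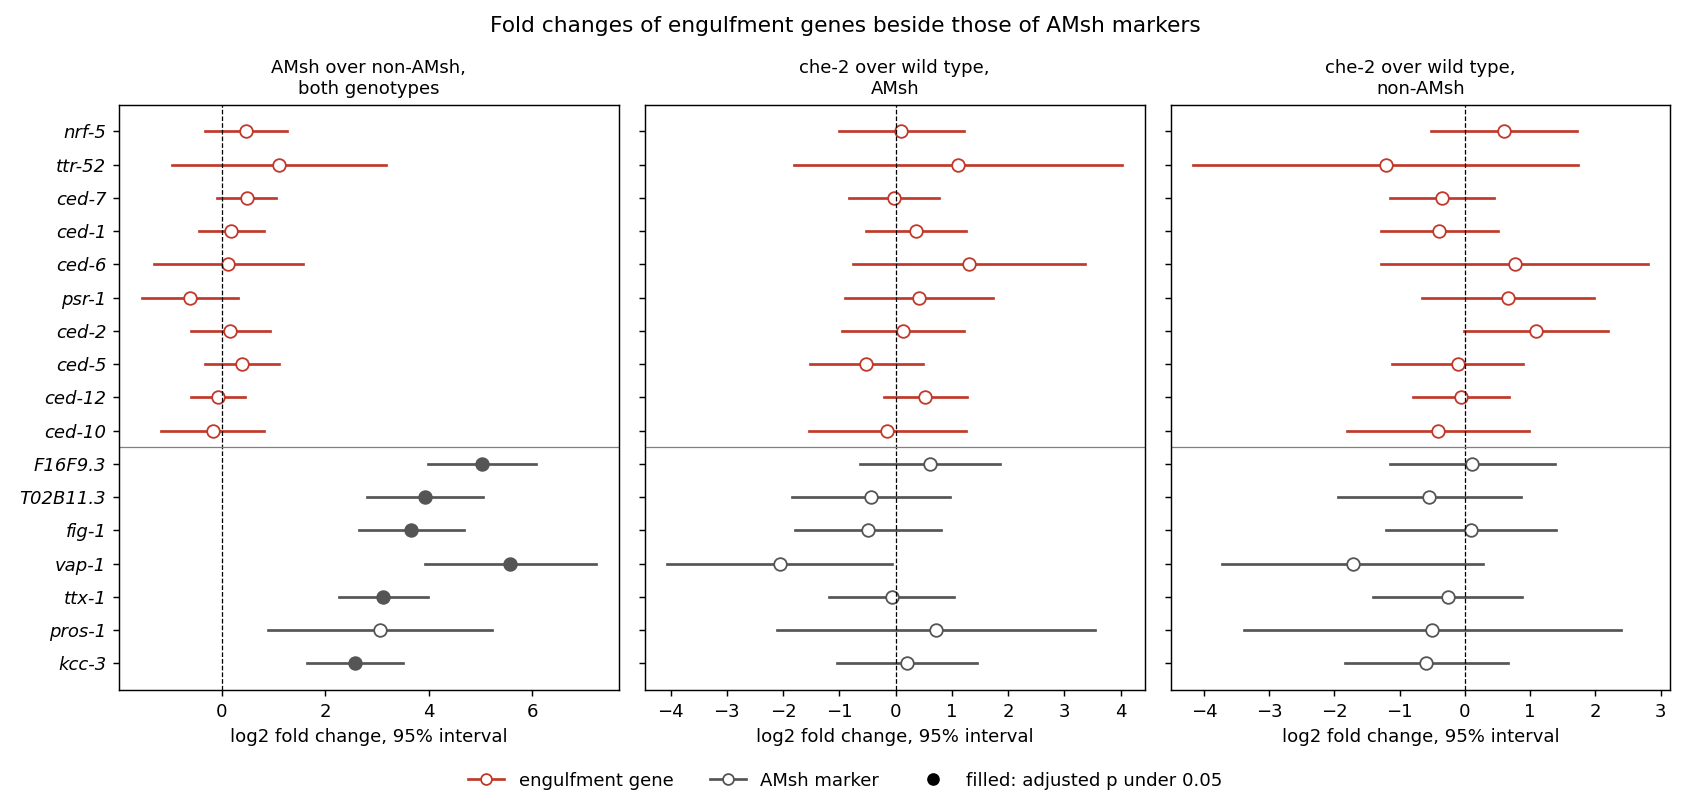
Log2 fold change with its 95% interval of the 10 engulfment genes (red) and of 7 AMsh markers (grey) for AMsh over non-AMsh, che-2 over wild type in AMsh, and che-2 over wild type in non-AMsh; filled symbols have an adjusted p under 0.05. The markers lie between 2.57 and 5.58 in the first panel, where the engulfment genes lie between -0.61 and 1.10.

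AMsh and non-AMsh cells of a culture were sorted from the same larvae, and the ratio within each culture gives the same picture with its spread. The log2 ratio of AMsh over non-AMsh (0.5 CPM added to each) was above 0 in 5 of 6 cultures for ced-1, ced-7 and ttr-52, in 4 of 6 for ced-5, ced-6 and nrf-5, in 3 of 6 for ced-12, in 2 of 6 for ced-2 and ced-10, and in 0 of 6 for psr-1. The wild type E30 culture gave the lowest ratio for ced-1 (-1.25), ced-6 (-2.88), ced-10 (-0.89) and ttr-52 (-2.84) and the highest for nrf-5 (2.25), ced-2 (1.34) and ced-5 (0.92). ced-12 had ratios of 0.17, 0.34 and 0.06 in the che-2 cultures, against -0.30, -0.41 and -0.36 in the wild type cultures, so the genotypes did not overlap. The test of that difference did not pass (log2 0.58, SE 0.48, 95% interval -0.46 to 1.62, unadjusted p = 0.249, adjusted p = 1.00 by edgeR), and 1.2% of all genes tested showed the same arrangement of signs. This fit had no term for the culture, so its SE and p do not use the pairing of the fractions. With the culture as a block, 0 of all genes tested were called for this difference.

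**Figure D4:**
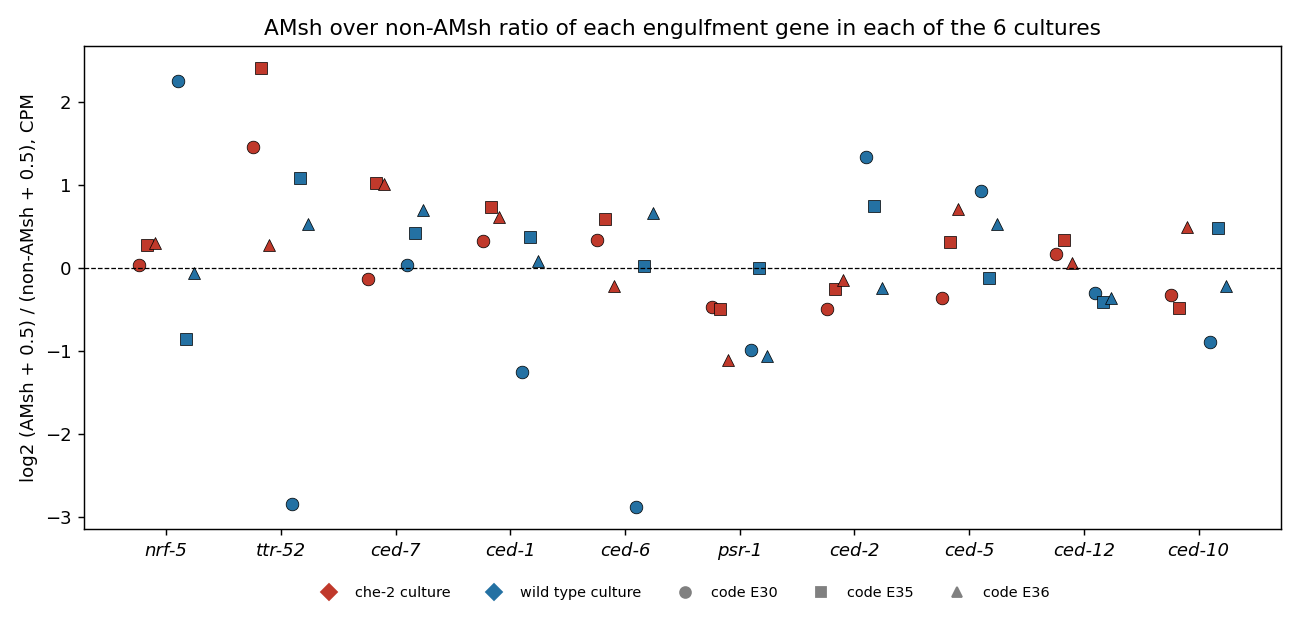
Log2 ratio of AMsh over non-AMsh (0.5 CPM added) of each gene in the 3 che-2 cultures (red) and the 3 wild type cultures (blue), with the replicate code shown by symbol. psr-1 is at or below 0 in all 6 cultures, and ced-12 is above 0 in the che-2 and below 0 in the wild type cultures.

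The comparison of che-2 with wild type asks whether glia whose partner cilia are lost carry more or less of this machinery. In AMsh, 7 of the 10 log2 fold changes were above 0 and their median was 0.25, against 0.12 over all genes tested, with a median size of 0.39, against 0.63 over all genes. No gene was without overlap between the genotypes (17% of all genes were), and 8 of the 10 95% intervals were within 2 log2 units of 0; those of ced-6 and ttr-52 were wider. Without the 2 libraries with the fewest genes, the log2 fold changes of ced-1, ced-6, psr-1 and ttr-52 lay below 0 (-0.22, -0.49, -0.26 and -0.61) and those of ced-5 and ced-10 above it (0.06 and 0.08). In non-AMsh the median was -0.08, against -0.01 over all genes. There 2 of the 10 genes, ced-2 and nrf-5, were higher in every che-2 library than in every wild type library, and 0 were lower. Over all genes 12.2% were higher and 10% lower in this way, 22.2% in either direction, so 2 of 10 is near the share over all genes. The other 8 had log2 fold changes from -1.21 (ttr-52) to 0.76 (ced-6), that of ttr-52 was -0.55 without wild type non-AMsh E30, and that of ced-6 was -0.13 without che-2 non-AMsh E35. The difference between the AMsh and non-AMsh changes had a median of 0.29 over the 10 genes, against 0.11 over all genes. Beside these comparisons, the summed level of 10 sperm markers was 267 to 442 CPM in che-2 AMsh libraries and 62.1 to 128 CPM in wild type AMsh libraries, and 210 to 591 CPM in che-2 non-AMsh libraries and 73.2 to 169 CPM in wild type non-AMsh libraries. Of 2 coelomocyte markers it was 37.7 to 74.1 CPM in che-2 AMsh and 110.6 to 209 CPM in wild type AMsh, and 40.6 to 72.1 CPM in che-2 non-AMsh and 72.2 to 292 CPM in wild type non-AMsh. Of 7 intestinal markers it was 1812 to 2797 CPM in che-2 AMsh and 3746 to 4682 CPM in wild type AMsh, and 1999 to 3016 CPM in che-2 non-AMsh and 3985 to 5986 CPM in wild type non-AMsh. The genotypes did not overlap in these 3 sums in either fraction, although the coelomocyte sums nearly met in non-AMsh (72.1 and 72.2 CPM). In both fractions the genotypes overlapped in the sums of neuron, hypodermis, body wall muscle, pharynx, gonadal sheath and germ line markers. The sums of the AMsh markers overlapped in AMsh but not in non-AMsh. The intestinal sum was mostly asp-1, at 1455 to 2171 CPM in che-2 AMsh and 3367 to 4039 CPM in wild type AMsh. The intestinal markers did not move as a group. In AMsh 3 of the 7 had log2 fold changes above 0 (up to 1.35) and 4 below, and in non-AMsh 2 were above and 5 below. All 9 germ line markers had log2 fold changes above 0 in both fractions (median 0.74 in AMsh and 0.95 in non-AMsh), although their sums overlapped and 0 of 9 was called in either. The part of the cells or stage that these markers stand for in the values of the engulfment genes was not tested.

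The spread between libraries differed among the 10. After group means were removed, the SD of the log2 level was 1.33 for ced-6 and 1.11 for ttr-52, the highest of the 10. Over all 12 libraries, group differences included, the highest level was 2.28 times the lowest for ced-12, 2.52 for ced-7, 3.24 for ced-1 and 3.54 for ced-2. Among genes of like level, ced-2 stood at the 1.6 percentile of this spread and ced-6 at the 90.4 percentile. Of the 20 highest and lowest values of the 10 genes, 6 were in che-2 AMsh E35 and 5 in wild type AMsh E30, while che-2 non-AMsh E36 held a further 5. Over all genes tested, 41.7% of such values were in the first pair of libraries.

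The genes that act before and after these 10 were counted from 4 lists: the death machinery, phosphatidylserine exposure and integrins, engulfment signalling and actin, and phagosome maturation. Of their 62 genes, 60 were tested and 0 were called in any of the 6 comparisons by edgeR. With the genotypes averaged, the smallest p of each list belonged to ced-9, a cell death inhibitor (log2 fold change 0.83, SE 0.54), ina-1, an integrin subunit (log2 fold change 0.63, SE 0.29), wve-1, an actin regulator (1.61, SE 1.01), and vps-18, a lysosomal trafficking subunit (0.53, SE 0.30). None passed, and each list's median lay between 0.10 and 0.25, against 0.18 for the 10 engulfment genes. wve-1 was near the floor, at 4.84 CPM in che-2 AMsh E35 and at 0 to 0.936 CPM in every other library.

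For che-2 over wild type in AMsh, the smallest p of each list belonged to scrm-1, a phospholipid scramblase (mean 8.75 CPM in che-2 libraries, SD 2.70, and 3.51 CPM in wild type libraries, SD 1.41, n = 3 each, log2 1.32, SE 0.60, adjusted p = 0.388 by edgeR), rab-35, a GTPase of phagosome maturation (-0.93, SE 0.39), crn-6, a DNase of corpse DNA (2.61, SE 1.22), and wve-1 (2.77, SE 1.47). None passed, and the high mean of wve-1 in che-2 AMsh comes from E35 (4.84 CPM), with 0.936 CPM in E30 and 0.289 CPM in E36. The phagosome maturation list had 18 of 26 genes below 0 and a median of -0.27, against 0.12 over all genes, and the other 3 lists had medians of 0.15 to 0.31. In non-AMsh, crn-6 had 7.65, 1.36 and 1.78 CPM in che-2 libraries E30, E35 and E36, against 0.0441, 0.141 and 0.692 CPM in wild type libraries. Those groups did not overlap, with every che-2 library higher, as for 12.2% of all genes tested. The change of crn-6 did not pass (log2 3.58, SE 1.28, adjusted p = 0.317 by edgeR), and DESeq2 alone called it (3.62, adjusted p = 0.0373, and up to 0.852 over the other alternatives). The wild type values of crn-6 rest on 1, 3 and 17 counts in E30, E35 and E36, so the size of this change is uncertain. The others of smallest p were wsp-1, an actin regulator (0.83, SE 0.34), dyn-1, the dynamin of engulfment (-0.71, SE 0.34), and anoh-1, an anoctamin (-1.54, SE 1.03), and none passed.

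**Figure D5:**
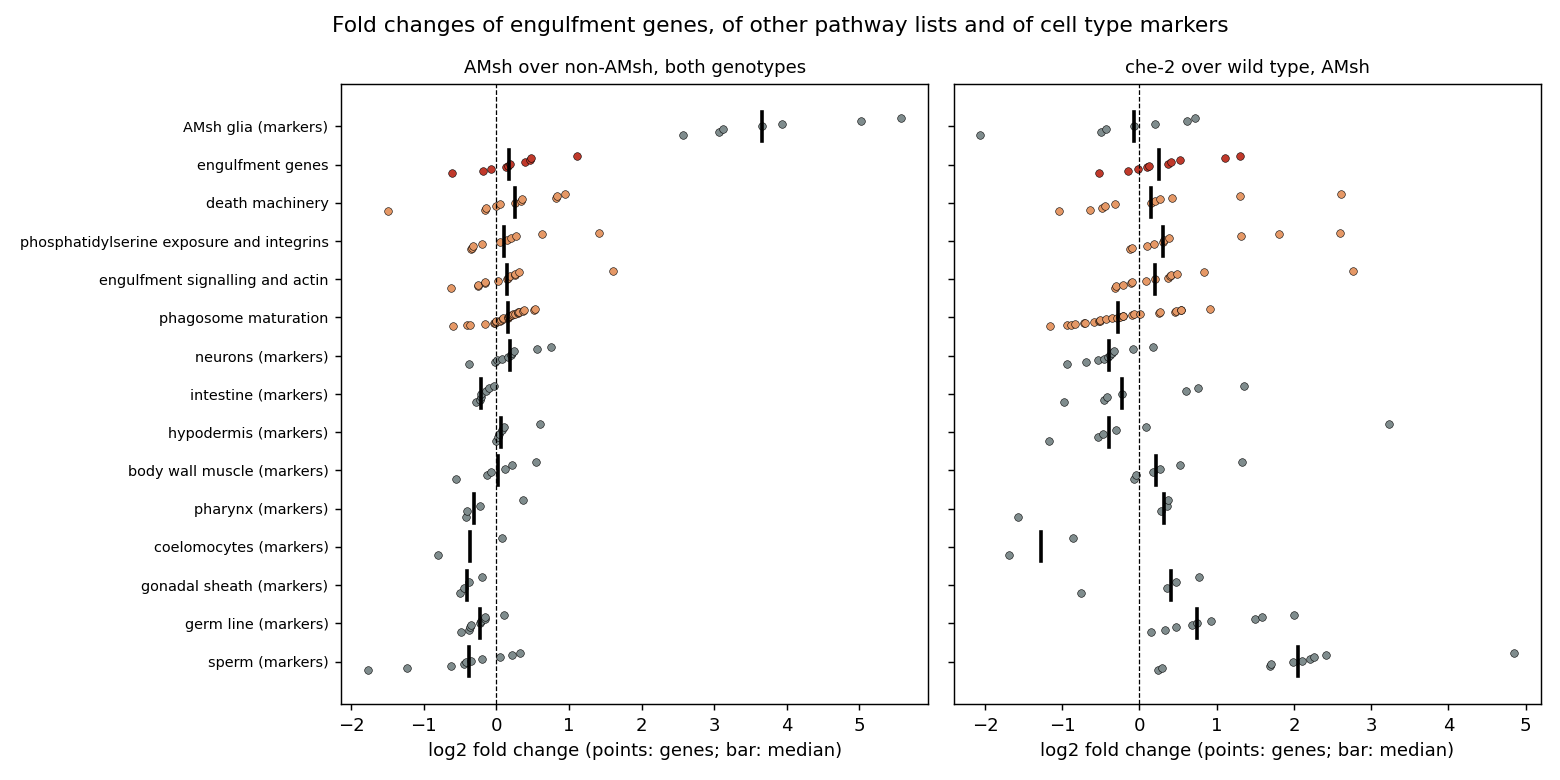
Log2 fold change of every tested gene (points) and the median (bar) of the engulfment genes, of 4 lists of other pathway genes and of 10 lists of cell type markers, for AMsh over non-AMsh with both genotypes averaged (left) and for che-2 over wild type in AMsh (right). The AMsh markers lie furthest from 0 as a list on the left, with a median of 3.66, and the sperm markers lie highest on the right, with a median of 2.05. On the left the intestine and gonadal sheath markers also lie entirely below 0 (medians -0.21 and -0.41), and the hypodermis markers entirely above it (0.06).

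For each of the 9 genes with a mean of at least 5 CPM, the gene of most similar pattern over the 12 libraries was looked up among 10392 other genes of at least 5 CPM, by Pearson's r of log2(CPM + 0.5). Each is the best of many candidates over libraries that share cultures and depth, so r is a description. They were tbc-1 for nrf-5 (r = 0.911), Y58A7A.3 for ced-7 (0.907), Y53G8AR.9 for ced-1 (0.916), mlt-7 for ced-6 (0.963), ddx-10 for psr-1 (0.943), pwp-1 for ced-2 (0.947), atg-13 for ced-5 (0.924), C29F7.3 for ced-12 (0.876) and sec-61.G for ced-10 (0.96). mlt-7, a peroxidase gene of the moult, was, like ced-6, high in both libraries of che-2 culture E35 (215 CPM in the AMsh library and 203 CPM in the non-AMsh library) and low in wild type AMsh E30 (15.0 CPM). The 10 genes themselves were not among the candidates.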

How the data were processed

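Per the submitters' processing notes, reads were handled with CASAVA 1.8.2 and FastQC, aligned with STAR 2.3 and counted with featureCounts on WBcel235; no source used gives the strand setting or the annotation release. The deposited table holds raw read counts per gene for the 12 libraries, not normalized, and the authors' summed exon length of each gene in bases, used for levels per kilobase. Libraries were matched to samples by the codes above the columns, since the titles of 3 of the E36 libraries carry another replicate number. The names of all 4 columns headed E35 carry the code E36, so their culture code rests on the heading and the matching sample description.

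Counts were scaled with TMM, genes were kept by filterByExpr (16690 genes), and edgeR 4.0.16 (R 4.3.3) was used to fit the means of 4 groups in 1 model (quasi-likelihood test, 8 residual degrees of freedom), with 2-sided p values adjusted by Benjamini-Hochberg over all genes tested at 0.05. The standard error is the size of the log2 fold change over the root of its F value. Tested on simulated data in which all genes had the same spread, the method gave the right direction for nearly all changed genes. It called most of them at a low spread, but missed nearly all at a spread near the common value of these libraries. Alternatives were DESeq2 1.42.0, limma 3.58.1, other scalings and filters, blocks, and leaving out libraries. Tables and figures used Python 3.11.15, pandas 2.3.3 and matplotlib 3.10.9.

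The fractions of a culture are from the same animals: after group means were removed, they correlated across genes at 0.218 to 0.599 in che-2 and at 0.271 to 0.327 in wild type. Same codes across genotypes correlated at 0.0162 to 0.022 in AMsh and at 0.104 to 0.253 in non-AMsh, where unlike codes gave -0.201 to 0.0178. Libraries of the same code were thus weakly alike across genotypes in non-AMsh, which does not establish a pairing. Limits from counts cover counting error only, since reads amplified without molecular identifiers are not independent molecules. A gene with no count lies at or below 0.115 to 0.195 CPM of the library total.

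The 10 genes, the marker lists and the 4 pathway lists were chosen with earlier results of these data known. Named besides them were, per pathway list, the gene of smallest p where none passed, for each of the 10 with a mean of at least 5 CPM the gene of highest r, and genes whose values stand beside a result.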

Additional observations from a re-analysis of the deposited data

Results flagged for a closer look

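The AMsh over non-AMsh ratio of ced-12 lay above 0 in the 3 che-2 cultures (0.17, 0.34 and 0.06 on the log2 scale) and below 0 in the 3 wild type cultures (-0.30, -0.41 and -0.36), and the medians differed by 0.534. All cultures of one genotype moved one way and all of the other the opposite way, as did 1.2% of all genes tested in the same direction. The test of the difference in edgeR did not pass (log2 0.58, SE 0.48, unadjusted p = 0.249, adjusted p = 1.00), and its value was 0.31 to 0.74 over the alternatives. That fit had no term for the culture and so did not use the pairing of the fractions. With the culture as a block, 0 of all genes tested were called for the difference.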

How the results depend on the processing

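No engulfment gene was called in any of the 6 comparisons under any alternative that could be run. The smallest adjusted p over them was 0.092 (ced-2 in che-2 over wild type non-AMsh, DESeq2). Of the 62 other pathway genes, 1 was called in che-2 over wild type non-AMsh by DESeq2 (crn-6), against 0 by edgeR, and no other alternative called one. Leaving out each library in turn gave 0 called engulfment genes and 0 called pathway genes throughout. Log2 fold changes that were never called changed sign in 18 of 220 gene and alternative pairs for the fractions in wild type, 10 of 220 in che-2, 17 of 210 averaged, 29 of 210 for che-2 over wild type in AMsh, 6 of 210 in non-AMsh and 16 of 210 for the difference. With the replicate code as a block, 0 engulfment genes and 0 other pathway genes were called in any comparison, and the culture block of the fractions likewise gave 0. The mean level of ced-2 in che-2 non-AMsh was 7.58 CPM with library totals in place of 6.81 CPM with TMM. The counts over all genes differed between methods: for che-2 over wild type, edgeR called 77 genes in AMsh and 24 in non-AMsh, DESeq2 883 and 778, limma voom 75 and 974, edgeR with the code block 218 and 167, and edgeR without a filter 198 and 209. For the fractions the counts were 73 in wild type, 99 in che-2 and 146 averaged by edgeR, and 176, 183 and 260 by DESeq2, and for the difference of genotype effects 0 by edgeR and 4 by DESeq2. The libraries of a comparison fitted alone gave 71, 0, 1 and 11 calls for the fractions in wild type and in che-2 and for the genotypes in AMsh and in non-AMsh. Depth limits ttr-52 most, with 504 counts over 12 libraries.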
